A study of Homo sapiens with 16 samples.

Results

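Transcripts of 5 secreted cytokines, IL6, LIF, IL11, CLCF1 and IL33, were followed together with STAT3, the transcription factor that most of them signal through, and SOCS3, the gene for its feedback brake. The set was given as a list of symbols, by a rule that used no measured values, although the list was drawn up with earlier results of these data known. All 7 symbols were found, each once, among the 40663 in the table of estimated counts. Bulk RNA was sequenced from Ccd18-Co, an established line of fibroblasts from human colon, in 16 libraries that fell into 4 groups of 4. Unstimulated cells had received DMSO, the solvent, and no cytokines. The other groups had received 3 pulses of a cytokine mix, each of 72 h with 96 h of recovery, in which IL-1B was at 0.1 ng/ml and OSM, TNF and IL-17A were at 10 ng/ml. After 1 week of rest they were kept for 5 days in DMSO (vehicle), in Belinostat at 250 nM or in GSK-J4 (GSKJ4 in the labels) at 10 µM. RNA was taken 2 weeks after that exposure ended. Belinostat inhibits histone deacetylases and GSK-J4 inhibits the demethylases of H3K27. All groups were wells of this same line, seeded at 25000 cells. Doses and numbers of libraries are those of the labels and the table. For belinostat, GSK-J4 and the replicates of such experiments, the study's text gives other values. For IL-1B it gives the dose of the labels in a figure legend and a lower dose in its methods.

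Cytokines of the IL-6 family bind a private receptor chain and a shared one, gp130, which is encoded by IL6ST. The paired receptors activate JAK kinases, these phosphorylate STAT3, and STAT3 then enters the nucleus and switches on target genes. One of these is SOCS3, whose protein binds gp130 and the JAK kinases and shuts the signal down, so that its transcript is widely used as a readout of the pathway. Fibroblasts are a major source of IL-6, LIF and IL-11 in inflamed gut. OSM, one of the cytokines in the pulses, is itself a member of the family. IL33 belongs to the IL-1 family and signals through another receptor, and it is kept here because it was listed with the others.

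The libraries held 14.4 to 19.5 M estimated counts, the lowest in belinostat replicate 18. Values are given as normalized counts, which are counts divided by DESeq2 size factors. A call means an adjusted p (Benjamini-Hochberg, over all genes tested) under 0.05 in DESeq2's Wald test, fitted across the 16 libraries. All 9 fibroblast markers examined were detected in every group. Summed over these markers, the level was 27670 to 29633 CPM (counts scaled to library size) in unstimulated, 29321 to 30453 in vehicle, 24763 to 29269 in belinostat and 30868 to 32286 in GSK-J4 libraries. The summed level of 4 epithelial markers stayed at or below 1.02 CPM, with KRT20 at 0 in all groups, and that of 4 immune markers lay between 8.57 and 27.4, with CD3E at 0. Nearly all of the immune sum was CD68, at 8.45 CPM in the lowest library and 27.2 in the highest. PTPRC reached at most 0.286 CPM and LYZ at most 0.381. Endothelial markers summed to between 1.36 and 2.72 CPM. Belinostat replicate 17 stood apart from its group over all genes, with a mean squared deviation (1 for sampling noise alone) of 26.5 to 31.6 to the other belinostat libraries, which differed by 3.69 to 4.70 among themselves. It held the fibroblast minimum of 24763 CPM, where the other belinostat libraries had 28510 to 29269. Unstimulated replicates 1 and 3 were as far apart, at 31.3.

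The cytokine pulses left no called change in these genes 2 weeks after the vehicle exposure, and SOCS3 and LIF were called in comparisons that involved a compound. SOCS3 was lower in belinostat cells than in vehicle cells, a call that was lost when any of 5 libraries was left out. LIF was higher in GSK-J4 cells than in unstimulated cells, a comparison that joins pulses and compound. With all libraries fitted, neither compound gave a call for LIF against vehicle. Both SOCS3 and LIF were lower after belinostat than after GSK-J4. The group means of STAT3 lay between 9139 and 9430 normalized counts. IL6 and IL33 were carried by few reads, and their libraries scattered widely within groups. In bulk RNA, fewer cells that make a transcript and less of it per cell cannot be told apart.

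Between vehicle and unstimulated cells, 0 of the 7 genes were called by DESeq2, against 1.74% of all genes tested, in either direction. By edgeR's quasi-likelihood test 0 were called, and 0 had an unadjusted p under 0.05 in DESeq2. The shares of all genes given here are of DESeq2 calls, and none was computed for edgeR or for unadjusted p. Between belinostat and vehicle, 1 of the 6 that were tested was called (SOCS3, lower), where 3.13% of all genes tested were called lower. At an unadjusted p under 0.05 there were 3 of the listed genes. Between GSK-J4 and vehicle, 0 of the 5 tested were called by DESeq2, with a background of 1.92% called in either direction. By edgeR 0 were called, and 1 (LIF) had an unadjusted p under 0.05 in DESeq2. Against unstimulated cells, belinostat gave 1 call of 6 tested (SOCS3, lower, background 4.77%) and GSK-J4 gave 1 of 7 (LIF, higher, background 3.18%). Between the compounds, 2 of 7 were called lower after belinostat (LIF and SOCS3), against 6.01% of all genes tested. Without belinostat replicate 17, the call in belinostat against vehicle was LIF (1 of 6) and not SOCS3, and between the compounds LIF alone (1 of 7). IL6 in 3 of these comparisons and IL33 in GSK-J4 against vehicle had too few counts for DESeq2's independent filter and received no adjusted p. The median log2 fold change of the genes tested was 0.07 for vehicle against unstimulated, -0.24 for belinostat against vehicle and -0.04 for GSK-J4 against vehicle, beside -0.0048, 0.0029 and -0.0025 over all genes tested. The vehicle libraries served both compound comparisons and the unstimulated libraries served 3 comparisons, so these are not independent of each other.

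**Figure D1:**
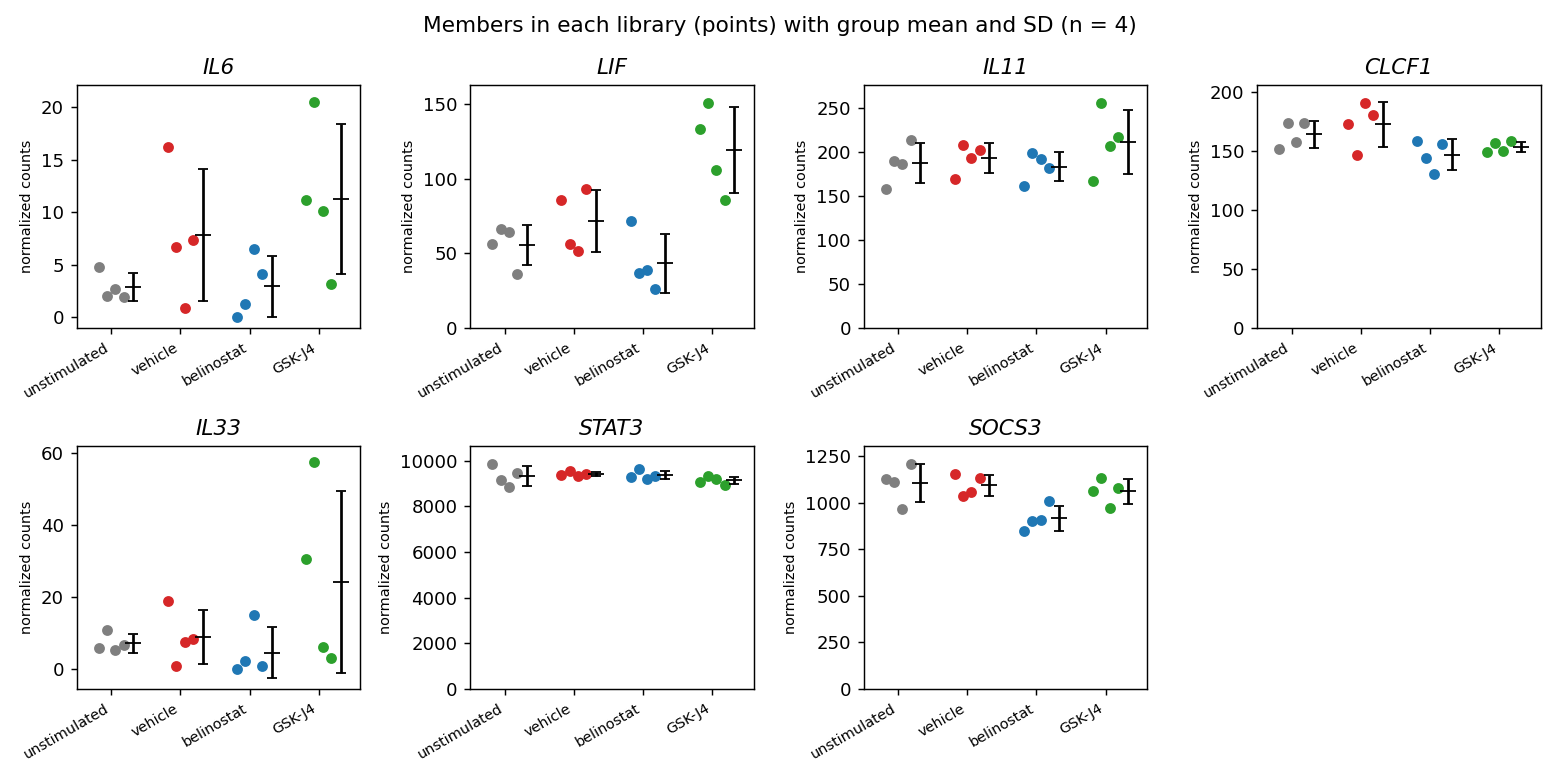
Normalized counts of the 7 genes (vertical axes, linear) in each of the 16 libraries, in panels by gene and columns by group. Points are libraries, and the bar beside them is the group mean with its SD (n = 4). The belinostat points of SOCS3, at 846 to 1006, lie below all vehicle points, the GSK-J4 points of LIF, at 85.9 to 151, lie above all unstimulated points, and STAT3 is level. Of all genes tested, 11.4% had no overlap between belinostat and vehicle libraries, and 11.9% had none between GSK-J4 and unstimulated libraries.

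The genes differed far more from each other than between groups. Scaled to the length of the canonical transcript, as normalized counts per kb in vehicle cells, STAT3 stood at 1916 ± 20.7 (SD, n = 4) and SOCS3 at 400 ± 20.7. The cytokines followed, with CLCF1 at 101 ± 11.1, IL11 at 81.2 ± 7.11 and LIF at 18.5 ± 5.38 per kb. IL6, at 6.92 ± 5.58, and IL33, at 3.33 ± 2.79 per kb, came last and did not differ beyond their spread. CLCF1 and IL11 also overlapped within 1 SD of each other in belinostat cells, at 86.3 ± 7.48 and 77.2 ± 6.90 per kb, and in GSK-J4 cells, at 90.2 ± 2.59 and 89.0 ± 15.4. The order of the first 5 genes was the same in all 4 groups. By mean normalized count, without regard to length, STAT3 ranked 233rd and IL6 14705th of the 26907 genes with any count.

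LIF, or leukaemia inhibitory factor, signals through LIFR and gp130. Its gene lies at chr22:30240453-30246759 on the minus strand of hg38 (ENSG00000128342.5, GENCODE v44). Its normalized counts were 56.0, 66.1, 63.9 and 36.1 in the unstimulated libraries and 85.7, 56.5, 51.2 and 93.1 in the vehicle libraries. They were 71.6, 36.6, 38.8 and 26.0 after belinostat and 133, 151, 106 and 85.9 after GSK-J4. All GSK-J4 libraries stood above all unstimulated and all belinostat libraries, while the lowest of them fell under the highest vehicle library. Of all genes tested, 11.9% had no overlap between GSK-J4 and unstimulated libraries, and 17.0% had none between the compounds.

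LIF was 2.14-fold higher in GSK-J4 than in unstimulated cells, a log2 fold change of 1.10 ± 0.29 (SE) with a DESeq2 adjusted p of 0.00508 (edgeR 0.0260). It was lower after belinostat than after GSK-J4, with a log2 fold change of -1.45 ± 0.30 and an adjusted p of 2.79e-05 (DESeq2) or 0.00264 (edgeR). Both calls held in every alternative tried, with adjusted p of at most 0.0486 and 0.00264. Against vehicle cells, neither compound gave a call. The log2 fold change was 0.73 ± 0.29 (SE) for GSK-J4 (95% interval 0.17 to 1.29, DESeq2 adjusted p = 0.240) and -0.72 ± 0.30 for belinostat (-1.31 to -0.13, adjusted p = 0.159). The estimates against vehicle thus pointed in opposite directions, but only the difference between the compounds passed the test. Belinostat replicate 17 was the highest of its group, and without it the belinostat estimate against vehicle was -1.09 with an adjusted p of 0.00443. When GSK-J4 and vehicle libraries were fitted alone, the adjusted p for LIF was 0.0487. Between vehicle and unstimulated cells the log2 fold change was 0.37, with an interval from -0.21 to 0.94.

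IL11, another ligand that uses gp130 and is known for its part in fibroblast activation, lies at chr19:55364382-55370463 (minus strand, ENSG00000095752.7). Its normalized counts were 158, 190, 186 and 214 in unstimulated, 169, 208, 193 and 202 in vehicle, 161, 199, 192 and 182 in belinostat and 167, 256, 207 and 217 in GSK-J4 libraries. All groups overlapped, and 1 GSK-J4 library held the highest value. The log2 fold change was 0.04 (95% interval -0.22 to 0.30) for vehicle against unstimulated, -0.08 (-0.34 to 0.19) for belinostat against vehicle and 0.13 (-0.13 to 0.39) for GSK-J4 against vehicle, none of them called. The stretch before the annotated start of IL11 is shown because it holds the site of AP-1, a factor that TNF and IL-1B activate. Capitals mark the match to TGANTCA, a motif that reads the same on both strands, with N for any base. It begins 96 bases before the start, in hg38 at chr19:55370464-55370713, printed as the minus strand reads.
IL11: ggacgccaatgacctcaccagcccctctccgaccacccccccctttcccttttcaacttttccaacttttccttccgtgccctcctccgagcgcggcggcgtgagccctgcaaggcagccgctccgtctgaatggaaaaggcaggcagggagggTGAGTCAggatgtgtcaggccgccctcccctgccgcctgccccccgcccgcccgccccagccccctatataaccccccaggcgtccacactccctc
This motif was present in 4.62% of 15345 promoters of the same length. It was in 1 of 4 windows of listed genes searched, as was the NF-kB motif shown with IL6, and the windows of IL33 and STAT3 held neither. A match is a sequence feature and does not show that a factor binds. LIF and CLCF1 had no entry in the RefSeq promoter table, and no window is given for SOCS3.

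CLCF1, or cardiotrophin-like cytokine factor 1, acts through the receptor of CNTF, which also includes gp130. The gene lies at chr11:67364168-67374177 (minus strand, ENSG00000175505.11). Its normalized counts were 152, 174, 158 and 174 in unstimulated, 173, 147, 191 and 181 in vehicle, 158, 144, 131 and 156 in belinostat and 150, 157, 150 and 158 in GSK-J4 libraries. GSK-J4 libraries lay in the lower range of the vehicle libraries. Belinostat libraries also overlapped the vehicle libraries, but replicates 18 and 19 (144 and 131) lay below the lowest of these (147). The log2 fold change of belinostat against vehicle was -0.23 (95% interval -0.45 to -0.0061), which did not pass the adjustment (DESeq2 adjusted p = 0.293). For GSK-J4 against vehicle it was -0.17 (-0.39 to 0.05, adjusted p = 0.691), and for vehicle against unstimulated 0.07 (-0.14 to 0.29). CLCF1 was thus not called in any of the 6 comparisons, by DESeq2 or by edgeR, and the intervals allow changes of at most 0.45 on the log2 scale in the comparisons with vehicle.

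IL6, the founding ligand of the family, lies at chr7:22725884-22732002 (plus strand, ENSG00000136244.12). It overlaps IL6-AS1 and STEAP1B on the other strand, and kallisto at default settings does not use the strand, so reads of these genes cannot be told apart where they overlap. The stretch upstream of the start is shown because it holds the site of NF-kB, through which TNF and IL-1B raise IL6. Capitals mark the match to the NF-kB motif (GGG and TTTCC with any NN between them), searched on both strands. It begins 73 bases before the start of the canonical transcript, and the stretch, chr7:22726950-22727146 on the plus strand of hg38, stops where the first exon of another annotated transcript begins.
IL6: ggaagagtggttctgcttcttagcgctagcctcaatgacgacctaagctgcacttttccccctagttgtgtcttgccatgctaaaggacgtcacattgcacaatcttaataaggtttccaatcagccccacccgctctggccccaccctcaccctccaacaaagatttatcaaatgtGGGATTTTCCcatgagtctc
Of the 15345 promoters, 1.83% held this motif.

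The normalized counts of IL6 were 4.83, 2.00, 2.66 and 1.95 in unstimulated and 16.2, 6.71, 0.931 and 7.38 in vehicle libraries. They were 0, 1.22, 6.47 and 4.15 after belinostat, where the library at 0 allows up to 3 counts, and 11.2, 20.5, 10.2 and 3.14 after GSK-J4. Vehicle and GSK-J4 libraries reached higher than the other groups but each also had a library among the low values, so that neighbouring groups overlapped. The counts summed over a group's 4 libraries were 12 in unstimulated (exact Poisson 95% interval 6.20 to 20.96), 33 in vehicle (22.7 to 46.3), 11 in belinostat (5.49 to 19.7) and 44 in GSK-J4 (31.97 to 59.1), intervals that cover counting error only. The log2 fold change was 1.44 ± 0.83 (SE) for vehicle against unstimulated (DESeq2 adjusted p = 0.677), 1.97 ± 0.82 for GSK-J4 against unstimulated (0.171) and -1.93 ± 0.83 for belinostat against GSK-J4 (0.117). No comparison of IL6 was called, and the interval for vehicle against unstimulated ran from -0.18 to 3.07, so that neither no change nor a large rise was outside it.

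IL33, an alarmin that is stored in the nucleus, lies at chr9:6215786-6257983 (plus strand, ENSG00000137033.12). Its normalized counts were 5.79, 11.01, 5.33 and 6.83 in unstimulated and 19.0, 0.958, 7.45 and 8.30 in vehicle libraries. They were 0, 2.44, 15.1 and 1.04 after belinostat and 30.5, 57.3, 6.10 and 3.14 after GSK-J4, with up to 3 counts possible in the library at 0. The high GSK-J4 mean of 24.3 ± 25.2 (SD, n = 4) came from replicates 21 and 22, and the remaining pair lay within the range of the other groups. The summed counts were 30, 38, 17 and 95 in the order given, with exact Poisson intervals of 20.2 to 42.8, 26.9 to 52.2, 9.90 to 27.2 and 76.9 to 116. IL33 was not called in any comparison. The estimate for belinostat against GSK-J4 was -2.39 ± 0.96 (SE, DESeq2 adjusted p = 0.0830), and it became -4.47 with an adjusted p of 0.00236 without belinostat replicate 19 and -2.76 with 0.0397 without GSK-J4 replicate 24. IL1RL1, which encodes the IL-33 receptor, had group means of 1.65 to 3.47 normalized counts.

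In 3 of the 4 groups the same library was highest for both of these rare transcripts. Vehicle replicate 13, belinostat replicate 19 and GSK-J4 replicate 22 held the highest value of their group for IL6 and for IL33, and belinostat replicate 17 was at 0 for both. In the unstimulated group they differed, with IL6 highest in replicate 1 and IL33 in replicate 2. Over the 16 libraries, Pearson's r between IL6 and IL33 on the log2 scale (pseudocount 1) was 0.67, and 0.59 once group means were removed. For LIF, r was 0.53 to both IL6 and IL33 over all libraries, and 0.10 and 0.25 within groups. In the GSK-J4 group all of these genes had the same order of libraries, from replicate 22 through 21 and 23 to 24. The pair of LIF and SOCS3 gave 0.25 over all libraries and -0.28 within groups. The genes of a library share its size factor. IL6 and IL33 were also at a few reads in many libraries, so the values are a description only.

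STAT3 lies at chr17:42313324-42388540 (minus strand, ENSG00000168610.16). Its normalized counts were 9876, 9144, 8873 and 9470 in unstimulated and 9388, 9571, 9332 and 9430 in vehicle libraries. They were 9293, 9636, 9224 and 9317 after belinostat and 9095, 9327, 9202 and 8933 after GSK-J4. The unstimulated libraries spread over the range of all other groups, and the GSK-J4 libraries lay just under the vehicle libraries without overlap, as 10.0% of all genes tested did. The log2 fold change was 0.01 (95% interval -0.05 to 0.08) for vehicle against unstimulated, -0.0098 (-0.08 to 0.06) for belinostat against vehicle and -0.05 (-0.11 to 0.02, DESeq2 adjusted p = 0.754) for GSK-J4 against vehicle. None was called, and the intervals leave no room for a change beyond 0.11 on the log2 scale in these 3 comparisons. These are transcript levels, and phosphorylation of the protein was not measured in these libraries.

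SOCS3 (suppressor of cytokine signalling 3) lies at chr17:78356778-78360077 (minus strand, ENSG00000184557.4). The normalized counts of SOCS3 were 1129, 1111, 964 and 1209 in unstimulated, 1151, 1035, 1054 and 1130 in vehicle, 846, 899, 907 and 1006 in belinostat and 1060, 1134, 971 and 1077 in GSK-J4 libraries. Each belinostat library stood below each vehicle library. Libraries of this pair of groups did not overlap, in either direction, for 11.4% of all genes tested. Against unstimulated and GSK-J4 cells the belinostat libraries overlapped in their highest value. Group means were 1103 ± 102 (SD, n = 4), 1093 ± 56.6, 914 ± 66.8 and 1061 ± 67.7.

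SOCS3 was 0.837-fold of the vehicle level after belinostat, a log2 fold change of -0.26 ± 0.08 (SE) with a DESeq2 adjusted p of 0.0186 (edgeR 0.0463). Against unstimulated cells the value was -0.27 ± 0.08 (DESeq2 adjusted p = 0.00791, edgeR 0.0220), and against GSK-J4 cells -0.21 ± 0.08 (0.0481 by DESeq2, 0.0641 by edgeR). For vehicle against unstimulated it was -0.01 (95% interval -0.16 to 0.14) and for GSK-J4 against vehicle -0.04 (-0.19 to 0.11), neither of them called. The call against vehicle was lost without vehicle replicate 13 (-0.23, adjusted p = 0.108), vehicle replicate 16 (-0.24, 0.0857), belinostat replicate 17 (-0.22, 0.0676), belinostat replicate 18 (-0.25, 0.0654) or belinostat replicate 19 (-0.25, 0.0546), although the value stayed between -0.31 and -0.22. The call against unstimulated cells was lost without unstimulated replicate 4 (-0.22, adjusted p = 0.0641), and that against GSK-J4 cells held only without belinostat replicate 20 or GSK-J4 replicate 23 among the 8 fits that left out a library, with adjusted p up to 0.198 in the others. The summed fibroblast markers, given above, were also lower in belinostat than in vehicle libraries, by far the most in belinostat replicate 17, which also held the lowest SOCS3 value of its group (846), and their part in this difference was not tested. The markers did not all move together. COL1A1 had group means of 104383 normalized counts in vehicle and 85188 in belinostat. LUM (25154 and 27174) and PDGFRB (15020 and 15239) were higher in belinostat, and the other markers were lower.

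**Figure D2:**
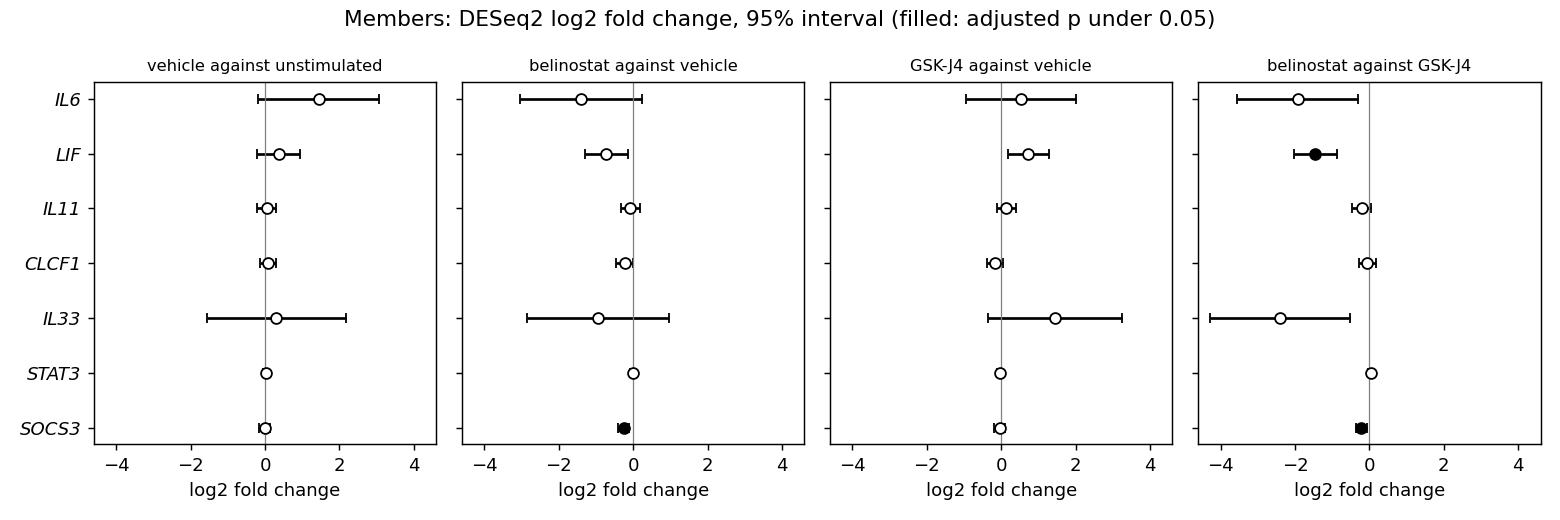
DESeq2 log2 fold changes (horizontal axis) of the 7 genes in 4 comparisons, with 95% intervals and filled points where the adjusted p was under 0.05. Filled points are SOCS3 in belinostat against vehicle (-0.26) and against GSK-J4 (-0.21) and LIF in belinostat against GSK-J4 (-1.45), while the intervals of IL6 and IL33 span several log2 units.

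Around these genes, 49 others of the pathway were taken from lists by role, namely other ligands, receptors, kinases and other STATs, feedback genes and textbook STAT3 targets. After belinostat, 8 of the 41 that were tested were lower than in vehicle cells and 0 were higher, where the background was 3.13% called lower and 3.12% called higher. By edgeR 5 were called, and 11 had an unadjusted p under 0.05 in DESeq2. No share of all genes was computed under either of these rules, so these counts have no background beside them. By role, 5 of 15 STAT3 target genes, 2 of 6 receptors and 1 of 11 feedback genes were lower, and 0 of 7 kinases and STATs and 0 of 2 other ligands were called. After GSK-J4, 1 of 40 was called higher and 0 lower than in vehicle cells, against backgrounds of 1.10% called higher and 0.818% called lower. In vehicle against unstimulated cells, 3 of 43 were higher, with a background of 1.10%, and 0 lower, with 0.634%. Against unstimulated cells the picture was mixed after belinostat, with 6 of 41 higher (background 5.51%) and 7 lower (4.77%), of which 3 and 5 were STAT3 targets. After GSK-J4, 7 of 44 were higher (3.18%) and 1 lower (2.37%) than in unstimulated cells. Without belinostat replicate 17, an alternative added after seeing the data, 8 of 40 were lower and 0 higher than in vehicle cells, with SOCS5 called in place of CEBPD and a background of 4.07% called lower.

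SOCS1, a second brake on JAK kinases that interferon and cytokine signals induce, moved with either compound. Its normalized counts were 141, 131, 117 and 152 in unstimulated, 130, 120, 150 and 159 in vehicle, 56.3, 73.3, 77.7 and 90.3 in belinostat and 197, 316, 286 and 192 in GSK-J4 libraries. The belinostat libraries lay below and the GSK-J4 libraries above all those without a compound. Of all genes tested, 11.4% had no overlap between belinostat and vehicle libraries, and 10.0% had none between GSK-J4 and vehicle libraries. The log2 fold change of SOCS1 against vehicle was -0.91 ± 0.19 (SE) for belinostat (DESeq2 adjusted p = 0.000115) and 0.83 ± 0.18 for GSK-J4 (0.000645), and between the compounds -1.74 ± 0.19 (5.86e-18). The calls against vehicle held in every alternative tried, with adjusted p of at most 0.00588 and 0.0270, and belinostat gave -0.79 without replicate 17, the lowest of its group. The group means of SOCS1 and LIF had the same order, with belinostat lowest and GSK-J4 highest, whereas the mean of SOCS3 after GSK-J4 was 0.971-fold of the vehicle level.

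**Figure D3:**
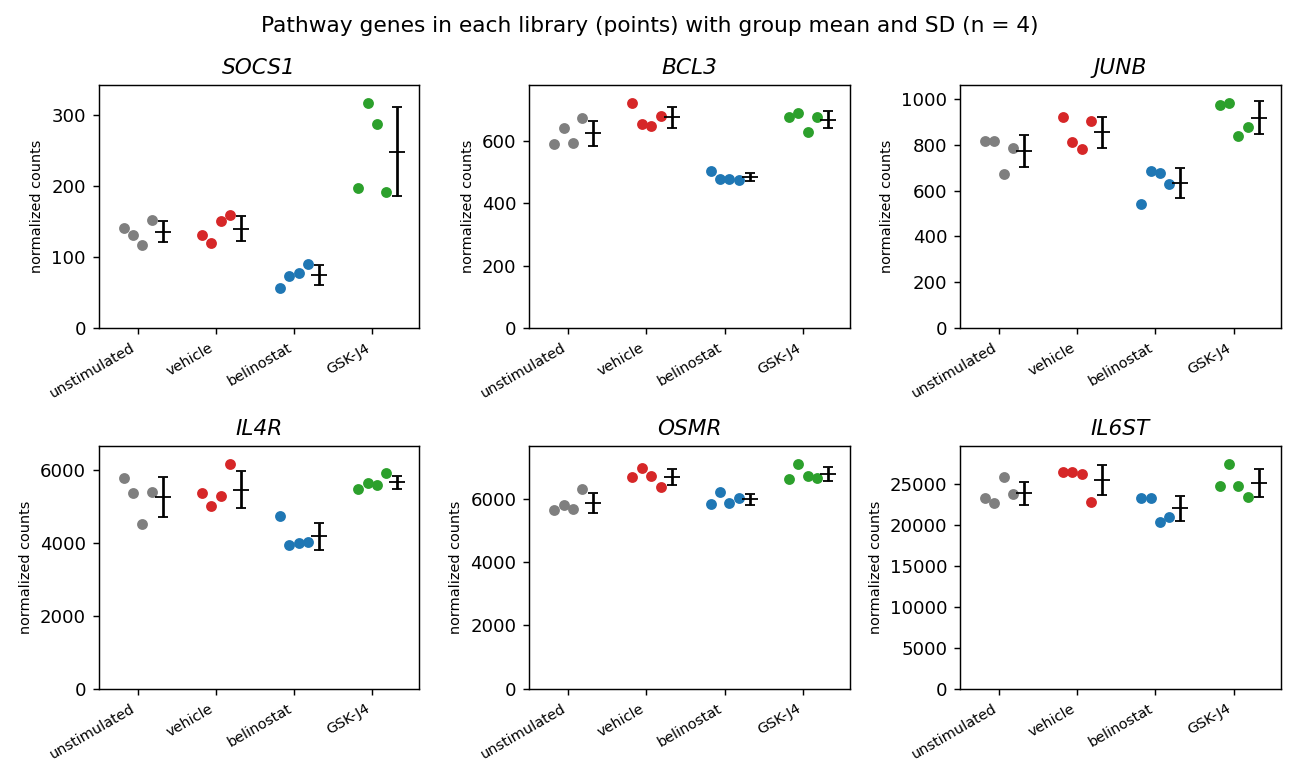
Normalized counts (vertical axes, linear) of SOCS1, BCL3, JUNB, IL4R, OSMR and IL6ST in each of the 16 libraries, in columns by group, with group mean and SD (n = 4). The belinostat points of SOCS1, at 56.3 to 90.3, lie below and the GSK-J4 points, at 192 to 316, above all others, and for BCL3, JUNB and IL4R the belinostat points lie below all vehicle points. Of all genes tested, 11.4% had no overlap between belinostat and vehicle libraries, and 10.0% had none between GSK-J4 and vehicle libraries.

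Of the STAT3 targets, BCL3, a co-regulator of NF-kB, fell from 675 ± 33.4 (SD, n = 4) in vehicle to 482 ± 13.3 in belinostat cells, a log2 fold change of -0.48 (DESeq2 adjusted p = 7.66e-11). JUNB, an AP-1 subunit, fell from 854 ± 67.1 to 633 ± 66.8 normalized counts (-0.44, adjusted p = 0.000127), and IL4R, a chain of the IL-4 receptor, from 5463 ± 502 to 4184 ± 379 (-0.38, 0.000168). For each of them all belinostat libraries were below all vehicle libraries. Of all genes tested, 11.4% had no overlap between these groups, in either direction. The calls for BCL3, JUNB and IL4R held in every alternative tried, with adjusted p of at most 5.24e-05, 0.00531 and 0.00778. PIM1, a kinase, gave -0.23 (0.00812), and the call was lost without vehicle replicate 13 (0.0630) or belinostat replicate 20 (0.0579). CEBPD, a transcription factor, gave -0.23 (0.0403), with 0.0826 by edgeR, and among the 8 fits that left out a library its call held only without belinostat replicate 18 or 20, with adjusted p of 0.0635 to 0.183 in the others. HIF1A and CCND1 were the targets called in vehicle against unstimulated cells, both higher (0.25 and 0.35), with DESeq2 adjusted p of 6.92e-09 and 1.59e-05.

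Among the receptors, IL6ST (gp130) and OSMR, the receptor chain for OSM, were the ones called in belinostat against vehicle. OSMR stood at 5847 ± 315 normalized counts (SD, n = 4) in unstimulated, 6677 ± 247 in vehicle, 5980 ± 171 in belinostat and 6766 ± 225 in GSK-J4 cells. It was higher in vehicle than in unstimulated cells (0.19, DESeq2 adjusted p = 0.00246, edgeR 0.0657) and lower in belinostat than in vehicle cells (-0.16, 0.00933, edgeR 0.0679). The second of these calls was lost without vehicle replicate 14 (-0.14, adjusted p = 0.0704). IL6ST fell from 25499 ± 1781 to 22015 ± 1533 (-0.21, DESeq2 adjusted p = 0.0322), which edgeR did not call (0.105) and which was lost without vehicle replicate 13, 14 or 15 or belinostat replicate 19 or 20 (adjusted p of 0.112 to 0.143). IL6R, the private chain for IL-6, was not called against vehicle and was lower than in unstimulated cells after either compound, with -0.21 for belinostat (DESeq2 adjusted p = 0.00407, but 0.0705 with these groups fitted alone) and -0.26 for GSK-J4 (0.000313). These comparisons join pulses and compound, and vehicle against unstimulated cells gave -0.12 for IL6R, which was not called (DESeq2 adjusted p = 0.435). Transcripts of OSM were at 0 in all libraries of 3 groups, with a highest value of 1.05 normalized counts in GSK-J4 libraries.

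**Figure D4:**
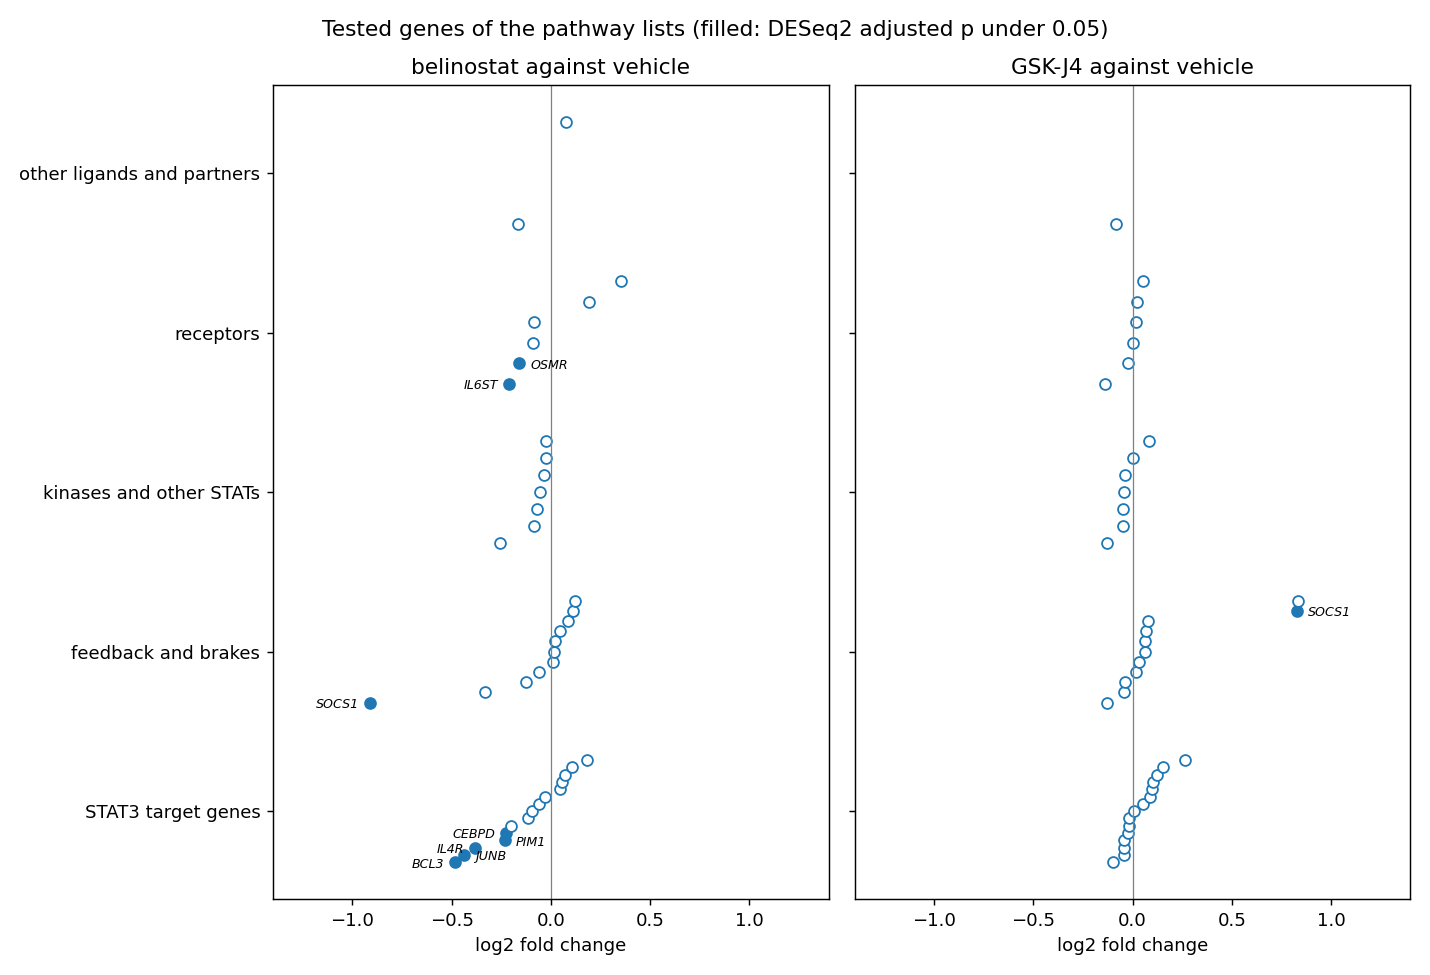
DESeq2 log2 fold changes (horizontal axis) against vehicle of each tested gene of the 5 lists by role (rows), for belinostat on the left and GSK-J4 on the right, with called genes filled and named. On the left 8 genes are filled, all below 0, and on the right SOCS1 alone is filled, at 0.83.

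Across the 16 libraries, the genes most like LIF in their log2 levels were F2RL2 (Pearson's r = 0.91), PTGDS (0.91) and ECM1 (0.91), among genes with a mean of at least 50 normalized counts. For SOCS3 they were ZBTB42 (0.88), COX17 (0.87) and TNFRSF1A (0.84), and for STAT3 MAT2B (0.81), PSMB10 (0.79) and CIB1 (0.78). IL11 was nearest to ZNF134 (0.80), VAPB (0.77) and PARP1 (0.76), and CLCF1 to ZNF549 (0.74), CWC22 (0.74) and FOXA1 (0.73). These are the highest of all correlations computed over libraries that share groups and depth, and they are given as a description.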

How the data were processed

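RNA-seq libraries of Ccd18-Co cells were grouped by the labels into 4 groups of 4. Unstimulated columns read none where the sample titles read DMSO, so they were matched by replicate number. No column was left unused. The authors deposited estimated counts per gene symbol, made with kallisto 0.48.0 at default settings after FastQC 0.11.9 and MultiQC 1.14, on hg38 per the submitters' processing notes. The transcriptome release and how transcripts became symbols are not given in the sources used here. Of the values, 28% had decimals (further than 1e-06 from a whole number), and they were rounded to whole numbers. IL11 and STAT3 had decimals in all 16 libraries, so shared reads were split by the authors' tool for these genes. CLCF1 had whole values in 8 of 16 libraries, and IL6, LIF, IL33 and SOCS3 had them in all 16.

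DESeq2 1.42.0 in R 4.3.3 was fitted to the 16 libraries together (Wald test by group, median-of-ratios size factors, default independent filtering and no other), as the study's methods name DESeq2. The call threshold was a Benjamini-Hochberg adjusted p of 0.05. Alternatives were edgeR 4.0.16 (quasi-likelihood test, TMM), TMM or total counts as size factors, a prior filter of 10 counts in 4 libraries, the groups compared alone, and leaving out each library. Both tools were tested on data simulated for belinostat against vehicle, with 14504 genes. At a log2 change of 0.5 each recovered 66 of 100 changed genes, and at 1.5 DESeq2 recovered 96 and edgeR 94. False calls were 18 with DESeq2 and 4 with edgeR. A change as small as that of SOCS3 in this comparison (-0.26) was not simulated. The labels give the replicates only as numbers, so p-values measure the spread between these wells. Depth was 14.4 to 19.5 M counts, and no pair of libraries agreed within sampling noise. All 7 listed genes are named, and of the pathway lists any gene called in some comparison could be named. The members and lists were chosen with earlier results of these data known, and the lists are not independent evidence. Promoter stretches of 250 bases before the GENCODE v44 canonical start were read from hg38 for protein-coding genes in the RefSeq promoter table, and some sequence and marker results are not reported here. Cell markers were COL1A1, COL1A2, COL3A1, DCN, LUM, PDGFRA, PDGFRB, THY1 and VIM for fibroblasts, with EPCAM, CDH1, KRT20 and VIL1 (epithelial), PTPRC, CD3E, CD68 and LYZ (immune) and PECAM1, VWF, CDH5 and CLDN5 (endothelial).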

Additional observations from a re-analysis of the deposited data

Results flagged for a closer look

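IL33 after belinostat was flagged because a single library stood far from the others of its group. Belinostat replicate 19 held 15.1 normalized counts, and the next highest library of the group held 2.44. Of 28 groups of 4 libraries examined (7 genes in 4 groups), 1 was flagged, where chance flags about 1 in 20.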

How the results depend on the processing

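No paired analysis was possible because the groups share no replicate numbers. LIF kept its calls in GSK-J4 against unstimulated and in belinostat against GSK-J4 in every alternative. The number of listed genes called in belinostat against vehicle went from 1 to between 0 and 1 when a library was left out, with SOCS3 between -0.31 and -0.22 and LIF between -1.09 and -0.54. When the groups were compared alone, 1 gene was called in GSK-J4 against vehicle (LIF, 0.73), 0 in belinostat against unstimulated (SOCS3, -0.27) and 1 in belinostat against GSK-J4 (SOCS3 lost, -0.22). The last count was also 1 under edgeR (SOCS3, -0.21) and with total counts as size factors (-0.20). Leaving out a library gave 0 to 1 calls in belinostat against unstimulated (SOCS3 -0.33 to -0.22) and 1 to 2 in belinostat against GSK-J4 (SOCS3 -0.26 to -0.18, IL33 -4.47 to -1.52). Estimates near 0 changed sign without single libraries, in vehicle against unstimulated for IL11 (-0.028 to 0.12), IL33 (-0.37 to 0.68), STAT3 (-0.0098 to 0.041) and SOCS3 (-0.073 to 0.034), and in belinostat against unstimulated for IL6 (-0.69 to 0.48), IL11 (-0.10 to 0.039) and STAT3 (-0.020 to 0.032, and -0.0056 with TMM size factors). None of those was called. Over all genes, 282 calls in vehicle against unstimulated became 166 under edgeR and 180 without unstimulated replicate 2, 253 in GSK-J4 against vehicle became 91 under edgeR and 542 with the groups alone and 132 to 193 when a library was left out, and 1461 in belinostat against unstimulated became 876 with the groups alone. The cause of these changes was not tested. IL6 and IL33 were at 11 to 95 counts summed over a group, which limits what can be read from them.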
